A study of Mus musculus with 8 samples.

Results

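The miRNAs miR-196 and miR-10, whose genes lie inside the Hox clusters, were followed through mouse footpad skin in which Dicer was conditionally deleted. They comprise 5 mature miRNAs, mmu-miR-196a-5p, mmu-miR-196b-5p, mmu-miR-196b-3p, mmu-miR-10a-5p and mmu-miR-10b-5p (written without the mouse prefix below), of 1881 mouse miRNAs on the array, read by 12 of its 4415 probes. They were chosen partly because the arms of the miR-196b hairpin differed between genotypes and because miR-196a-5p was lower in the knockout, so every comparison of knockout with wild type for these 5 is a description and carries no test. All 5 passed the filter on low signal, among 385 miRNAs that did. miR-196b-3p passed it only through the knockout arrays.

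Total RNA with the small RNA retained was hybridised to 8 single-colour Agilent arrays, 2 for each of 4 groups. The groups were embryos with a Dicer conditional knockout (cKO) at embryonic days E17.5 and E16.5, and wild-type (WT) embryos at E17.5 and E16.5, all on a C57BL6 background. Each array held RNA pooled from the footpads of 3 to 5 embryos, so a p-value measures the spread between pools. The labels do not say which promoter or cell type drove the deletion, nor whether the pads came from forelimbs or hindlimbs. Because whole tissue was measured, fewer cells of a type and less RNA per cell cannot be told apart.

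Hox genes encode transcription factors that give cells their position along the body axis, and each Hox cluster carries miRNA genes among its coding genes. miR-196 is known in the mouse for pairing almost perfectly with Hoxb8 mRNA, which is cut there, and it is made in the posterior trunk and the hindlimb. miR-10 is known in human cells for repressing HOXD10. Dicer cuts the loop from a precursor hairpin and leaves a short duplex, from which usually one arm is kept and the other is degraded.

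The mature sequences, from RefSeq on the GRCm38.p6 build, show how alike the members are. The seed, bases 2 to 8, is in capitals, since it sets most target pairing.
miR-196a-5p: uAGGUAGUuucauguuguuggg
miR-196b-5p: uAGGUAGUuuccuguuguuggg
miR-196b-3p: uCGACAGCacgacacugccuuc
miR-10a-5p: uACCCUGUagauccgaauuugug
miR-10b-5p: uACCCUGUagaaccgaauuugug

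The seed AGGUAGU was shared by miR-196a-5p and miR-196b-5p and by no other of 1679 mature mouse miRNAs in the RefSeq table, and ACCCUGU was found only in miR-10a-5p and miR-10b-5p. Within each pair a single base differed. Counted from 1 at the 5′ end, miR-196a-5p and miR-196b-5p differed by A12C, and miR-10a-5p and miR-10b-5p by U12A. The seed of miR-196b-3p, CGACAGC, occurred in no other mature miRNA of the table.

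RefSeq placed all of them in Hox clusters. miR-196a-5p has a pair of genes, Mir196a-1 in the Hoxb cluster (mature strand at chr11:96265187-96265208, plus strand, between Hoxb13 and Hoxb9) and Mir196a-2 in the Hoxc cluster (chr15:102973365-102973386, plus strand, between Hoxc10 and Hoxc9). The probes cannot tell these genes apart. Mir196b lies in the Hoxa cluster, between Hoxa9 and Hoxa10, with miR-196b-5p at chr6:52230129-52230150 and miR-196b-3p at chr6:52230094-52230115 on the minus strand. miR-10a-5p lies within the span of Hoxb3, 1058 bases from Hoxb4 (chr11:96317186-96317208, plus strand), and miR-10b-5p within the spans of Hoxd3 and Hoxd4 (chr2:74726074-74726096, plus strand). The hairpin of miR-196b is shown because its arms gave different results. In it both mature arms are in capitals, miR-196b-5p first.
Mir196b hairpin: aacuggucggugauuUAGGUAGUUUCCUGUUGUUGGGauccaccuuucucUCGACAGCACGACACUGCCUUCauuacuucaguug

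The probes that represented the members are given 5′ to 3′, because over the stretch they share, a miR-196 or miR-10 probe differs from that of its near-twin at 1 base, in capitals, opposite base 12 of the miRNA. The miR-196a-5p probe is 22 bases long and that of miR-196b-5p 20, pairing with bases 1 to 22 and 3 to 22 of their miRNAs. In the probe of miR-196b-3p the capital lies opposite base 8.
miR-196a-5p probe: cccaacaacaTgaaactaccta
miR-196b-5p probe: cccaacaacaGgaaactacc
miR-196b-3p probe: gaaggcagtgtcgtG
miR-10a-5p probe: cacaaattcggAtctacaggg
miR-10b-5p probe: cacaaattcggTtctacaggg

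Whether such a probe also binds the near-twin was not tested. No other mature miRNA came within 2 mismatches of the stretch that the miR-196b-3p probe pairs with. That probe covers only bases 8 to 22 of its miRNA, and no probe of these members was tested against precursor hairpins.

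The arrays detected 383 and 352 miRNAs in cKO E17.5, 365 and 281 in cKO E16.5, 384 and 375 in WT E17.5 and 367 and 279 in WT E16.5. In every group the second array detected fewer, with the widest gaps at E16.5. Replicate arrays correlated across miRNAs at r = 0.997 to 0.999. Dicer mRNA was not measured, so the deletion could not be checked on these arrays. The labelled tissue was checked by 7 marker miRNAs of skin epithelium (miR-200a-3p, miR-200b-3p, miR-200c-3p, miR-141-3p, miR-429-3p, miR-203-3p and miR-205-5p), whose summed normalized signal was 2.58 to 4.01 in cKO arrays and 26.3 to 31.2 in WT arrays. All 7 were lower in cKO, with a median of −3.12 on the log2 scale, where 14.5% of all tested miRNAs were lower at an adjusted p below 0.05 (limma). Of the 7 dermal mesenchyme markers, 6 were higher in cKO arrays, with summed signals of 60.5 to 65.7 in cKO and 45.7 to 52.6 in WT, where 46.0% of all tested miRNAs were higher. All 3 skeletal muscle and both endothelial markers were higher in cKO as well. With all-probe, no or control-probe scaling, 0 of these mesenchymal, muscle and endothelial markers were higher, whereas all 7 epithelial markers were lower under each of the 6 scalings tried. With control probes 2 of the 7 mesenchymal, 1 of the 3 muscle and 1 of the 2 endothelial markers were lower, as were 256 of all 385 tested miRNAs. Of the 4 nerve markers, miR-124-3p and miR-9-5p were not detected, and of the 2 tested 1 was higher in cKO with the scaling used here. The part of these tissue markers in the values below was not tested.

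Signals are given as normalized intensity, the scanner's background-subtracted intensity over the 75th percentile of that array, taken across the probes that all arrays detected. A value of 1 therefore equals that percentile, and values are compared between arrays for 1 probe only. Values below a floor, −4.24 on the log2 scale, were raised to it before log2 was taken.

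**Figure D1:**
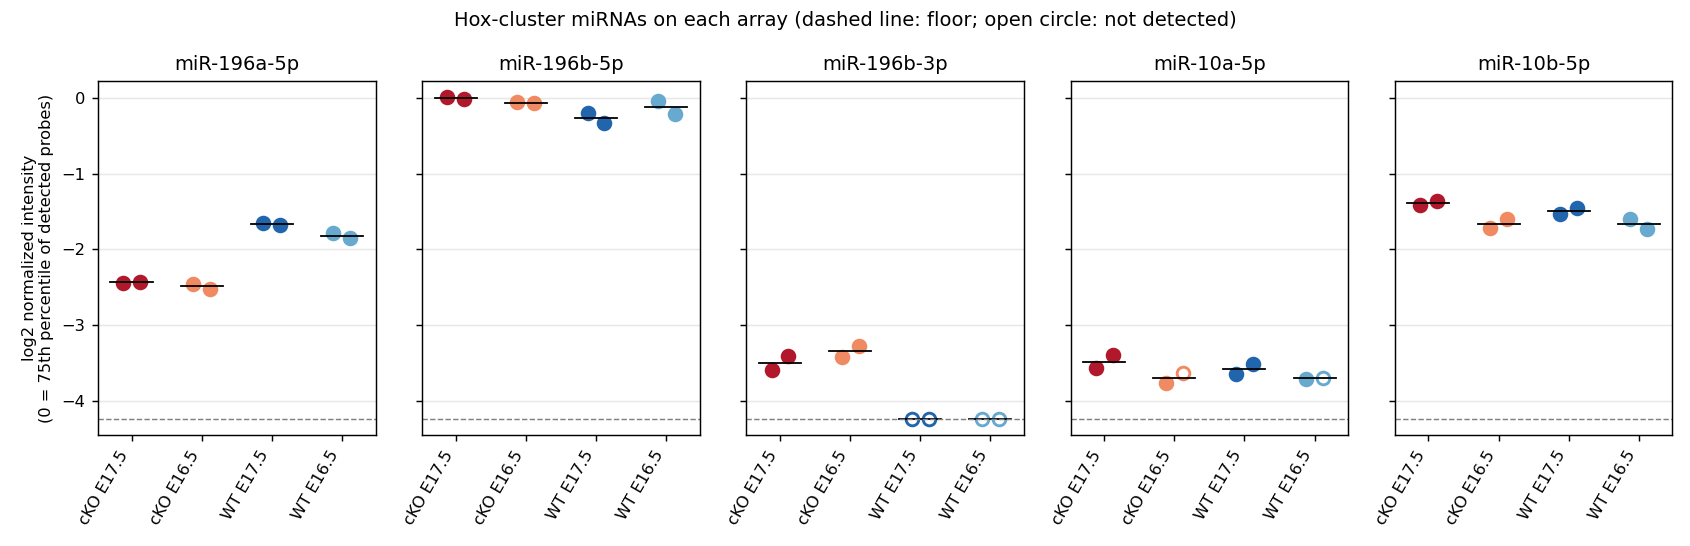
Log2 normalized intensity of the 5 members on each array (y axis, 0 is the 75th percentile of detected probes), by group (x axis), with filled circles for arrays on which the miRNA was detected, open circles for arrays on which it was not, a bar at the mean of the 2 arrays and a dashed line at the floor. miR-196a-5p is lower on the 4 cKO arrays than on the 4 WT arrays, miR-196b-3p leaves the floor only on cKO arrays, and the other members differ little between genotypes.

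miR-196a-5p was the member with less signal in the knockout. Its normalized intensity was 0.184 and 0.186 on the cKO E17.5 arrays and 0.182 and 0.174 on the cKO E16.5 arrays. On WT arrays it was 0.318 and 0.313 at E17.5 and 0.290 and 0.278 at E16.5. The highest cKO array thus lay below the lowest WT array. Over both stages the difference was −0.72 ± 0.0312 (log2, SE, 4 arrays a genotype), or 1.65-fold lower in cKO, and it ranked 17 from the lowest of 385. It was −0.77 ± 0.0442 at E17.5 and −0.67 ± 0.0442 at E16.5. Arrays in the same slide row gave the same picture, with differences of −0.79 and −0.75 at E17.5 and of −0.67 and −0.67 at E16.5. Even so, miR-196a-5p stayed detected on all 8 arrays, with every spot well above background (54 of 54 spots).

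All 4 probes of miR-196a-5p, which are nested and share their sequence, were lower in cKO, but by different amounts. The 22-base and 21-base probes differed by −0.72 and −0.77 on the log2 scale, and the 20-base and 19-base probes by −1.13 each. The 20-base probe lay above the floor on all 8 arrays and was detected on 7, while the 19-base probe was at the floor on 3 arrays, which limits its difference. With the mean of all probes in place of the brightest, the difference was −0.94. With normexp background correction, which adds an offset of 50 to each intensity, it was −0.34.

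miR-196b-5p, which has the same seed from a gene in another Hox cluster, differed far less. It measured 1.01 and 0.993 on the cKO E17.5 arrays and 0.967 and 0.957 on the cKO E16.5 arrays, against 0.872 and 0.799 in WT E17.5 and 0.980 and 0.869 in WT E16.5. The genotypes overlapped, because 1 WT E16.5 array exceeded both cKO E16.5 arrays. The difference was 0.16 ± 0.0496 over both stages, and the median of all tested miRNAs was 0.17. The difference was 0.26 ± 0.0701 at E17.5 and 0.06 ± 0.0701 at E16.5. At E16.5 the slide rows differed in sign (−0.02 and 0.14). Both of its probes gave the same values, 0.16 and 0.16. Without the first WT E16.5 array, the genotypes no longer overlapped for miR-196b-5p, and 3 members rather than 2 were separated by genotype.

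miR-196b-3p, from the opposite arm of the same hairpin, was detected on all 4 cKO arrays and on none of the 4 WT arrays. Its unscaled intensity was 33.9 and 35.3 in cKO E17.5 and 26.9 and 29.6 in cKO E16.5, against 14.0 and 11.3 in WT E17.5 and 8.11 and 4.79 in WT E16.5. Of its replicate spots, 30 of 30 were well above background in cKO E17.5 and 26 of 28 in cKO E16.5, compared with 2 of 30 in WT E17.5 and 0 of 28 in WT E16.5. Its normalized intensity was 0.0831 and 0.0940 in cKO E17.5 and 0.0936 and 0.103 in cKO E16.5, whereas the 4 WT arrays lay between 0.0168 and 0.0279, all under the floor of 0.0528. Because WT was not well above background, only a bound can be given for the difference. Each WT array was set at its dimmest signal still marked well above background, or at the probe's own signal if that was higher. Against that, miR-196b-3p was at least 2.20-fold higher in cKO over both stages, at least 2.75-fold at E17.5 and at least 1.76-fold at E16.5. The difference rests on 1 probe of 15 bases. The other probe, of 14 bases, was detected on 0 of 8 arrays.

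The miR-10 members were not separated by genotype over the 8 arrays. miR-10b-5p measured 0.375 and 0.389 in cKO E17.5 and 0.304 and 0.330 in cKO E16.5, against 0.345 and 0.364 in WT E17.5 and 0.330 and 0.301 in WT E16.5. At E16.5 the genotypes overlapped, and at E17.5 both cKO arrays lay above both WT arrays. The difference was 0.06 ± 0.0487 over both stages, 0.11 ± 0.0689 at E17.5 and 0.00 ± 0.0689 at E16.5. Its probes, of 21 and 20 bases, gave 0.06 each.

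miR-10a-5p lay close to the floor. It measured 0.0840 and 0.0948 in cKO E17.5 and 0.0732 and 0.0802 in cKO E16.5, against 0.0799 and 0.0872 in WT E17.5 and 0.0760 and 0.0772 in WT E16.5. It was detected on 6 of 8 arrays, missing on the second E16.5 array of each genotype. The difference was 0.05 ± 0.0575 over both stages, 0.10 ± 0.0813 at E17.5 and 0.00 ± 0.0813 at E16.5. Its shorter probe was at the floor on all 8 arrays.

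**Figure D2:**
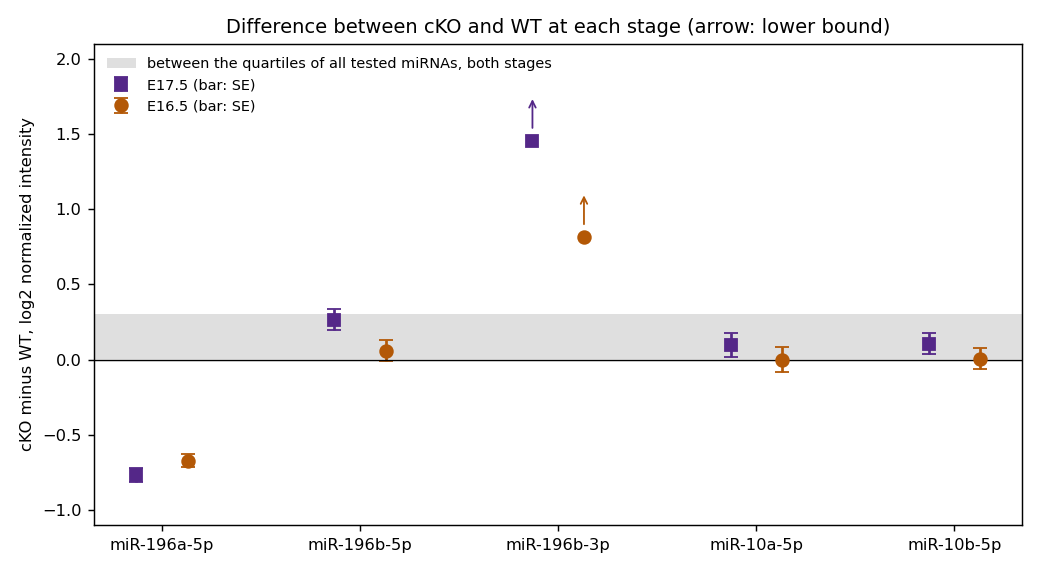
Difference between cKO and WT in log2 normalized intensity (y axis) for each member (x axis) at E17.5 (squares) and E16.5 (circles), with SE bars, and with arrows above the 2 lower bounds of miR-196b-3p. The grey band runs between the quartiles of all 385 tested miRNAs over both stages, and miR-196a-5p lies below it at both stages while miR-196b-3p lies above it.

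Across the 5 members, 1 had all cKO arrays above all WT arrays (miR-196b-3p) and 1 had all below (miR-196a-5p). The same was true of 25.5% and 11.2% of all tested miRNAs. Since the members were chosen by this contrast, nothing is read from these shares.

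**Figure D3:**
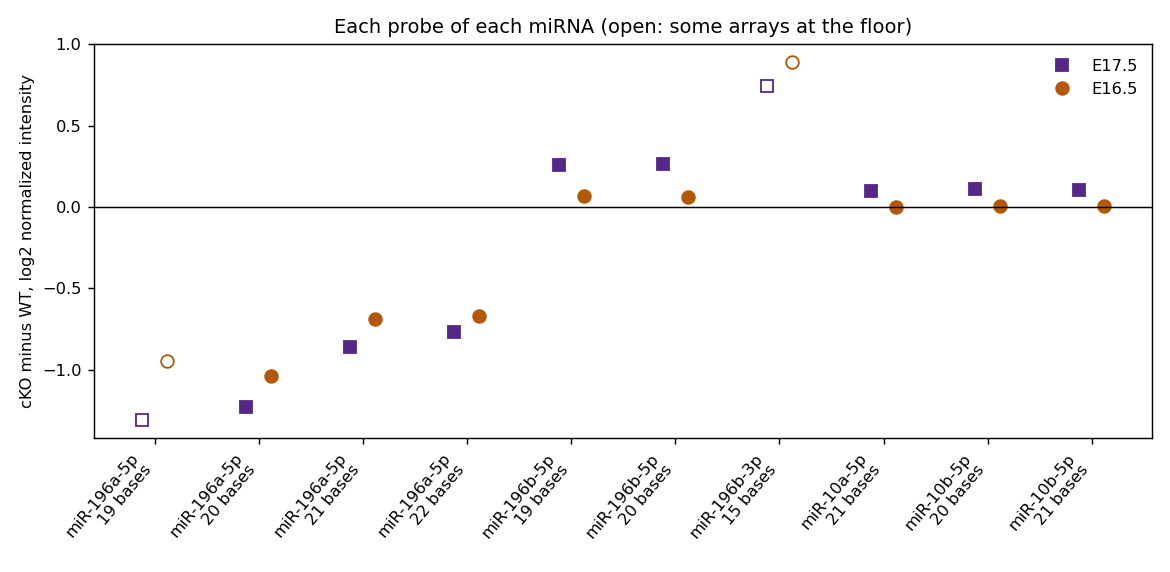
Difference between cKO and WT in log2 normalized intensity (y axis) for each probe of the members that left the floor (x axis, with probe length), at E17.5 (squares) and E16.5 (circles), with open symbols where some arrays were at the floor. The 4 probes of miR-196a-5p lie below 0 at both stages, with the shorter ones lowest, and the probes of miR-196b-5p and of miR-10b-5p agree within each pair.

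How arrays are scaled decided the sign of the small differences but not of the large ones. Under 6 scalings the median of all tested miRNAs ranged from 0.17 with the scaling used here to −0.25 with 20 positive control probes. With the control probes 7 miRNAs were higher and 256 lower at an adjusted p below 0.05 in limma, with the percentile of all probes 6 and 44, and with the scaling used here 177 and 56. miR-196a-5p was lower under all 6, by 0.72 to 1.20 on the log2 scale, and relative to the median of all miRNAs it lay at −0.96 to −0.84. miR-196b-5p was 0.16 with the main scaling and −0.32 with control probes, yet stayed between −0.08 and 0.01 relative to the median. Relative to the median, miR-10a-5p lay at −0.19 to −0.12 and miR-10b-5p at −0.18 to −0.11, although their differences changed sign between scalings (0.05 and −0.44 for miR-10a-5p, 0.06 and −0.43 for miR-10b-5p). The bound of miR-196b-3p was at least 1.57-fold to at least 2.20-fold higher in cKO.

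**Figure D4:**
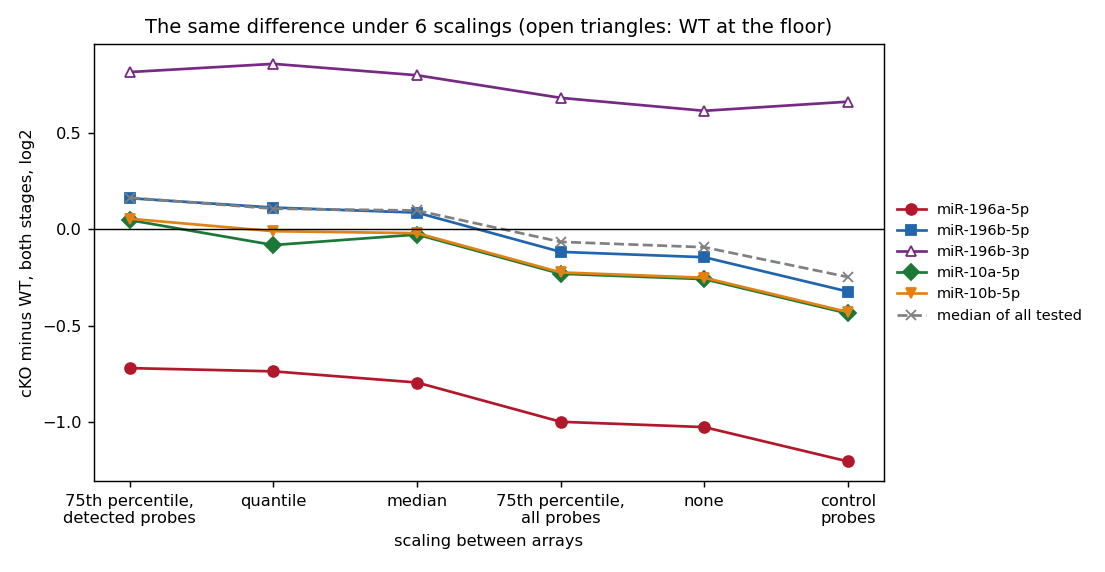
Difference between cKO and WT over both stages in log2 (y axis) for the 5 members and for the median of all 385 tested miRNAs under 6 scalings between arrays (x axis), with open triangles for miR-196b-3p because WT is at the floor. All lines but those of miR-10a-5p and miR-196b-3p move down at each step from left to right. miR-196b-5p stays close to the median of all miRNAs, miR-196a-5p below 0 and miR-196b-3p above 0 throughout.

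Between members above the floor on every array, the log2 ratio on the same array does not depend on the divisor used to scale it. The log2 ratio of miR-196a-5p to miR-196b-5p differed by −0.88 (SD within groups 0.0585) between cKO and WT, with no overlap between the 4 cKO and the 4 WT arrays. Its ratio to miR-10b-5p differed by −0.78 (SD 0.0803), also lower in cKO. The ratio of miR-10a-5p to miR-10b-5p changed by −0.01 (SD 0.0719), less than its spread. For the arms of the miR-196b hairpin, the ratio of miR-196b-3p to miR-196b-5p was higher in cKO by 0.66 (SD 0.117). That value is limited by the floor in WT and does depend on the scaling, with 0.99 under control probes.

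The comparison of stages did not enter the choice of members and was tested, with limma and Benjamini-Hochberg adjustment over all 385 miRNAs. miR-10b-5p was higher at E17.5 than at E16.5 by 0.22 ± 0.0487 over both genotypes (adjusted p = 0.0220). All 4 E17.5 arrays exceeded all 4 E16.5 arrays, as was true of 4.68% of tested miRNAs. miR-196a-5p rose by 0.10 ± 0.0312, or 1.07-fold (adjusted p = 0.0484), while the E17.5 arrays overlapped the E16.5 arrays when both genotypes were pooled. miR-10a-5p missed the threshold at 0.17 ± 0.0575 (adjusted p = 0.0623), and miR-196b-5p measured −0.04 ± 0.0496 (adjusted p = 0.516). Thus, of the 4 members measured in both genotypes, 2 rose and 0 fell, where 16.1% of all tested miRNAs rose and 27.5% fell, and the median miRNA stood at −0.03. Tissue markers moved with stage too. The 3 skeletal muscle markers and both endothelial markers were higher at E17.5, with medians of 0.20 and 0.23 on the log2 scale, and the 2 cartilage markers, with 0 called, had a median of 0.57. The part of these markers in the stage differences was not tested.

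Both calls depended on single arrays and on the settings. With the slide row as a block, miR-196a-5p missed the threshold (adjusted p = 0.0556) and miR-10a-5p passed it (adjusted p = 0.0239), while miR-10b-5p was kept (adjusted p = 0.0363). miR-10b-5p missed it with quantile scaling (adjusted p = 0.0515) and with scaling on all probes (adjusted p = 0.0581). When 1 array was left out, the call of miR-196a-5p was lost in 7 of 8 cases, with adjusted p from 0.0491 to 0.248, and was kept only without the first WT E16.5 array. That of miR-10b-5p was lost without either cKO E17.5 array, either WT E17.5 array or the second WT E16.5 array, with adjusted p from 0.0256 to 0.0930 over all 8. Its difference stayed between 0.15 and 0.25. With normexp background correction miR-10b-5p measured 0.05 (adjusted p = 0.297), and the differences of miR-196a-5p and miR-10a-5p turned to −0.08 and −0.20, where the median of all miRNAs stood at −0.18. With no scaling 237 miRNAs rose and 5 fell, and with control probes 195 rose and 20 fell, against 62 and 106 with the main scaling. Relative to the median of all miRNAs, miR-10b-5p lay at 0.25 to 0.35, miR-10a-5p at 0.20 to 0.31 and miR-196a-5p at 0.13 to 0.23 under the 6 scalings.

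Within the knockout, miR-10b-5p was higher at E17.5 by 0.27 ± 0.0689 (adjusted p = 0.0370 in limma). It was the 1 called of the 4 members measured in both genotypes, where 15.3% of tested miRNAs rose and 20.3% fell. The arrays of the same slide row gave 0.30 and 0.24. The call was kept without the second cKO E16.5 array or the first WT E16.5 array, and lost without any other (adjusted p 0.0411 to 0.124). It was also lost with quantile (adjusted p = 0.0998), median (0.0707), all-probe (0.203) and no scaling (0.0740), with the median of spots (0.101) and with the slide row as a block (0.0589). With normexp background the difference was 0.09 (adjusted p = 0.213). miR-10a-5p measured 0.22 ± 0.0813 (adjusted p = 0.0915) and miR-196a-5p 0.06 ± 0.0442 (adjusted p = 0.353). For miR-196b-3p the difference was −0.15, given without SE or test. Its WT arrays, all at the floor, add a spread of 0 to the shared estimate and make both too small.

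Within WT, 0 of the 4 members measured there passed at an adjusted p below 0.05 in limma, where 4.16% of tested miRNAs rose and 10.6% fell. At an unadjusted p below 0.05, for which no share of all miRNAs is given, there was 1, miR-196a-5p. That miRNA measured 0.15 ± 0.0442 (adjusted p = 0.0806), and miR-10b-5p 0.17 ± 0.0689 (adjusted p = 0.150). miR-10a-5p measured 0.12 ± 0.0813 (adjusted p = 0.353) and miR-196b-5p −0.15 ± 0.0701 (adjusted p = 0.213). For miR-10b-5p in WT the slide rows gave 0.06 and 0.27. miR-196b-3p was not detected and lay under the floor at both stages in WT, and no difference is given there.

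**Figure D5:**
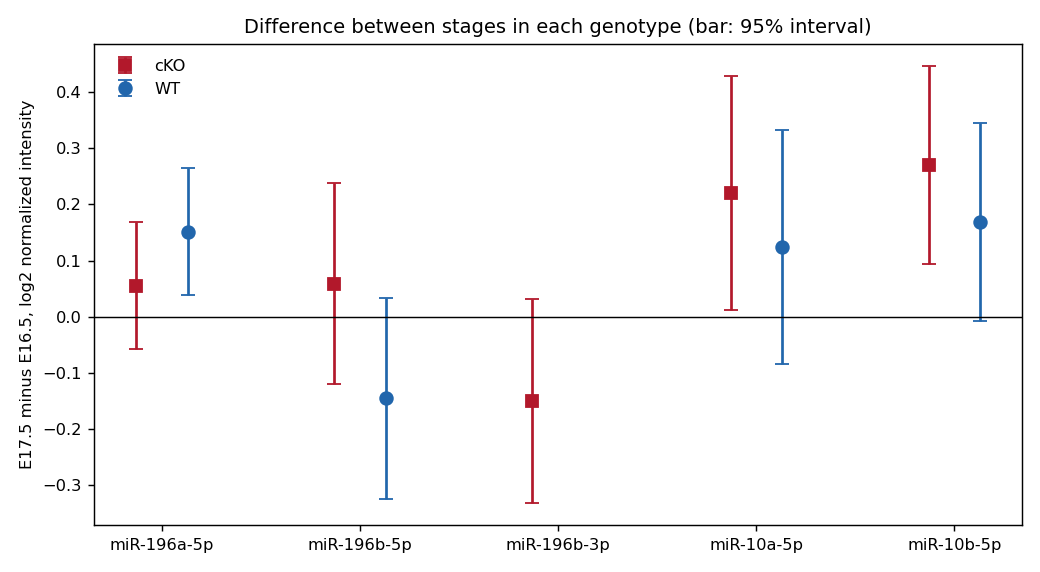
Difference between E17.5 and E16.5 in log2 normalized intensity (y axis) for each member (x axis) in cKO (squares) and WT (circles), with 95% intervals from limma. The interval of miR-10b-5p in cKO runs from 0.09 to 0.45, and those of the genotypes overlap for every member shown in both. miR-196b-3p in WT is left out because it was not detected there. Its interval in cKO is too narrow, because its WT arrays at the floor add a spread of 0.

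The effect of the knockout was not shown to differ between stages for any member that could be tested. The interaction was called for 0 of the 4 members measured in both genotypes at an adjusted p below 0.05 in limma. At that threshold 0.779% of all tested miRNAs were higher and 0.779% lower. The members called were also 0 at an unadjusted p below 0.05, for which no share of all miRNAs is given. miR-196b-5p came closest, with a difference between its E17.5 and E16.5 effects of 0.20 ± 0.0992 and a 95% interval from −0.05 to 0.46 (adjusted p = 0.242). For miR-196a-5p the interval ran from −0.26 to 0.06 (adjusted p = 0.359), for miR-10b-5p from −0.15 to 0.35 (adjusted p = 0.513) and for miR-10a-5p from −0.20 to 0.39 (adjusted p = 0.582). With control-probe scaling miR-196a-5p was called, at −0.42 (adjusted p = 0.0370 in limma). Under that scaling 102 of all 385 tested miRNAs were called lower and 0 higher, and their median was −0.24.

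Other miRNAs detected on all 8 arrays were compared with the members by the root mean square difference of log2 values, each centred on its mean over the 8 arrays, among 258 candidates. Nearest to miR-196a-5p were miR-365-3p (0.0882), miR-193a-3p (0.0907) and miR-20a-5p (0.103), against a median of 0.507 for all candidates. These 3 differed between cKO and WT by −0.65, −0.68 and −0.56. Nearest to miR-196b-5p were miR-181a-5p (0.0410), miR-125a-5p (0.0449) and miR-130a-3p (0.0481), and nearest to miR-10b-5p were miR-15b-5p (0.0572), miR-455-5p (0.0623) and let-7b-5p (0.0627), against medians of 0.175 and 0.230. The other members were not detected on every array and were not compared in this way.

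The remaining 6 Hox-cluster miRNAs were the opposite arms miR-10a-3p, miR-10b-3p, miR-196a-1-3p and miR-196a-2-3p, and both arms of miR-615, which lies within Hoxc5. None passed the filter on low signal (0 of 6), and 5 were detected on no array. miR-615-3p was detected on 0 of 4 cKO arrays and on 2 of 4 WT arrays, the first at each stage. Its unscaled intensity was 3.80 and 11.98 in cKO E17.5 and 5.37 and 6.17 in cKO E16.5, against 20.3 and 16.2 in WT E17.5 and 19.0 and 15.6 in WT E16.5. Every WT array was above every cKO array before scaling. After scaling, the second cKO E17.5 array (0.0319) exceeded the second WT E17.5 array (0.0310). With 7 of the 8 arrays at the floor, no fold change is given. The opposite arm was thus detected for 1 of the miR-196 and miR-10 hairpins, that of miR-196b, and only in cKO.

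miR-99a-5p, miR-99b-5p and miR-100-5p are the relatives of miR-10 outside the Hox clusters, and their seed, ACCCGUA, shares its first 4 bases with that of miR-10. All were detected on all 8 arrays. miR-100-5p was 0.19 higher in cKO over both stages (adjusted p = 0.00736 in limma), 0.02 above the median of all miRNAs, and changed sign with control probes (−0.30). It missed the threshold with median (adjusted p = 0.0774), all-probe (0.815) and no scaling (0.696). miR-99b-5p differed by −0.19 (adjusted p = 0.00944) and by −0.68 to −0.19 under the 6 scalings. Its call was lost with all-probe (adjusted p = 0.0818) and no scaling (0.0661). The difference was −0.07 (adjusted p = 0.399) at E17.5 and −0.32 (adjusted p = 0.00863) at E16.5, with no call on their difference (adjusted p = 0.116). miR-99a-5p differed by −0.00 (adjusted p = 0.995), and by −0.49 with control probes (adjusted p = 0.000590). With stage, miR-99a-5p rose by 0.15 (adjusted p = 0.0305) and miR-100-5p by 0.16 (adjusted p = 0.0194), whereas miR-99b-5p measured −0.20 (adjusted p = 0.0161), and 0.05 with control probes. The stage call of miR-99a-5p was lost with quantile (adjusted p = 0.0801) and all-probe scaling (0.0630), and that of miR-100-5p with all-probe scaling (0.0686). That of miR-99b-5p was lost with all-probe (0.517), no (0.0824) and control-probe scaling (0.469).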

How the data were processed

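Single-colour Agilent mouse miRNA arrays were read with Agilent Feature Extraction 11.5.1.1, per the file headers. The deposited intensity of each spot is the scanner's background-subtracted signal on a linear scale, unscaled between arrays, per the file headers. The deposited values of the series equalled it in 100% of spots above 0 (within 0.02), while 42.2% to 45.1% of spots per array were at 0 or less and hold a constant of the array there. That constant, between 2.90 and 5.12, is also the median of the array's values there. These values are thus linear and uncentred, and they served as an alternative.

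Outlier spots (2.84% to 6.02% per array) were left out, 0 spots were saturated, and spots of a probe were averaged. To scale an array, its 75th percentile across the 474 probes that all 8 arrays detected was used as divisor. Detection of a probe needed over 50% of its spots well above background. A floor of −4.24 on the log2 scale, taken from the 5th percentile of detected probes on each array and the median of these over arrays, replaced lower values. The probe with the highest mean log2 value after the floor stood for each miRNA, or the first by identifier where all its probes were at the floor. Tests covered 385 of 1881 miRNAs, those that both arrays of some group detected, and all arrays detected 261. In R 4.3.3, limma 3.58.1 fitted 4 group means (with eBayes on a variance trend and 4 residual degrees of freedom), with Benjamini-Hochberg adjustment within each of 7 contrasts at 0.05. The number of arrays limits the precision. A group with every array at the floor has a spread of 0 that is set by the floor.

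The limma fit alone was tested on simulated log2 values, with stage differences in 40 of 385 miRNAs and noise from miRNAs above the floor on every array. Scaling, detection and the floor were not simulated. The fit called 60% of those changed by 0.25 log2 and 100% of those changed by 0.5 or 1, with 2 false calls. The 40 changed miRNAs were shared among these sizes in a single simulated data set, so each percentage rests on few miRNAs. Smaller changes were not simulated, such as the 0.10 and 0.22 of the members called over both genotypes. The 4 groups filled 4 columns of a single slide, so column and group cannot be told apart. Each slide row held 1 array of every group. Members and lists were chosen with earlier results of these data known. Named were the members with all probes, the other Hox-cluster miRNAs, the relatives of miR-10, and for each member detected on all arrays the 3 miRNAs nearest in pattern. Marker lists (skin epithelium, dermal mesenchyme, skeletal muscle, blood, endothelium, nerve and cartilage) were counted. With this scaling, of the 5 blood markers 3 were higher in cKO, of the 2 tested nerve markers 1, and of the 2 cartilage markers 0. Positions and sequences come from RefSeq. Files were read with jsonlite 2.0.0 and data.table (version 1.17.8), and figures drawn with matplotlib 3.10.9 and pandas 2.3.3 in Python 3.11.15. Alternatives covered scaling, background correction, summaries of spots and probes, floor, filter, variance model, replicate block and left-out arrays.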

Additional observations from a re-analysis of the deposited data

How the results depend on the processing

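The separation of the genotypes held for both miR-196a-5p and miR-196b-3p (2 members) under every alternative but 1. Since the members were chosen partly by this contrast, nothing is read from that. The replicate block, the variance model and the fit without a filter leave the array values unchanged, so they could not alter it. Requiring detection on all arrays left 1, since miR-196b-3p is then not tested, and leaving out 1 array gave 2 or 3. The 2 stage calls over both genotypes were miR-10a-5p and miR-196a-5p with quantile scaling, and became 1 with scaling on all probes (miR-10a-5p), with normexp background (miR-10a-5p, as a fall), and with the median of spots, the mean of all probes, a floor 1 log2 lower, detection on all arrays or no filter (miR-10b-5p in each). With quantile scaling 110 of all 385 miRNAs rose and 76 fell, with all probes 32 and 6, and with normexp background 43 and 219. The calls became 5 with no scaling (237 miRNAs rose and 5 fell) and 4 with control probes (195 and 20). The 5 include miR-196b-3p, whose WT arrays were at the floor, so that it was not measured in both genotypes. When 1 array was left out there were 0 to 2. The 1 call in cKO was miR-196b-3p with no scaling or normexp background (as a rise and a fall), where 23 miRNAs rose and 5 fell, and 37 rose and 140 fell. With no scaling the WT arrays of miR-196b-3p were at the floor, and their spread of 0 entered that call. It became 2 with quantile scaling (miR-10a-5p and miR-196a-5p) and with control probes (miR-10a-5p and miR-10b-5p), 0 with median scaling, scaling on all probes, the median of spots or a fit of the compared groups alone, and 0 to 1 when 1 array was left out. The 0 calls in WT became 1 with quantile scaling, median scaling or no variance trend, 3 with no scaling and 4 with control probes. The interaction had 0 calls and 1 with control probes, where 102 of all 385 miRNAs were lower. Without the second E16.5 array of both genotypes, an alternative chosen after seeing the data, the stage calls were 0 over both genotypes and 0 in cKO, and 1 other Hox-cluster miRNA was called (miR-615-3p, by at most −0.09 log2 at the floor), against 0. Groups left with 1 array were assumed to vary like the others. The deposited table gave the same calls. The filter-free fit dropped miRNAs at the floor on every array.

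Some signs turned. For miR-196b-5p the cKO difference over both stages was −0.12 with all-probe scaling, −0.14 with none and −0.32 with control probes, and at E17.5 −0.0641, −0.124 and −0.381. Its stage difference was 0.48 with no scaling and 0.21 with control probes, and 0.27 in WT with control probes. The stage difference of miR-196b-3p in cKO was 0.29 with no scaling. At E17.5 the cKO difference of miR-10a-5p was −0.0402, −0.232, −0.292 and −0.549 with median, all-probe, no and control-probe scaling, and that of miR-10b-5p −0.0307, −0.222, −0.282 and −0.539. With normexp background the stage difference was −0.0763 for miR-196a-5p (adjusted p = 0.151) and −0.20 for miR-10a-5p (adjusted p = 0.0231), and the cKO difference of miR-196a-5p was −0.34. The cause was not tested beyond the shift of all miRNAs given with the scalings.

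Replicate numbers follow slide rows, and the deviations of same-numbered arrays correlated at −0.19 to 0.33. The numbers were not used as pairs in the main fit. A row effect shared by the groups was not tested by these correlations, and the second array detected fewer miRNAs in every group. With the replicate block the counts of members stayed at 2 over both genotypes, 1 in cKO, 0 in WT, 0 for the interaction and 2 separated by genotype. Over both genotypes miR-196a-5p then missed the threshold (adjusted p = 0.0556) and miR-10a-5p passed it (adjusted p = 0.0239). In cKO miR-10b-5p missed it (adjusted p = 0.0589) and miR-10a-5p passed (adjusted p = 0.0326). Low signal limits miR-196b-3p and miR-10a-5p, which lie near the floor.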
